A study of Capra hircus with 8 samples.

Results

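The chromosome 29 cluster is a group of 10 goat (Capra hircus) genes, known by LOC numbers only, that lie in 1 short stretch of the gene order and were low in cloned 8-cell embryos. They were picked by name out of the 22107 entries of the messenger RNA table of 8-cell embryos. The table has 4 libraries, 2 from in vitro fertilised (IVF) embryos and 2 from cloned embryos. The clones came from somatic cell nuclear transfer (SCNT): an egg lost its own nucleus and was given that of a body cell. The series has 8 samples in all; its 4-cell samples have lncRNA values only and were not used here. Libraries were made from polyadenylated RNA of whole lysed embryos with Smart-seq2, which copies and amplifies full-length transcripts of a few cells. The labels name no strain, donor cell type, embryo number or age, and do not say whether the libraries of a group are separate pools, so any p-value measures only the spread between these samples, which may be technical. Levels are FPKM, fragments per kilobase of gene and per 1000000 fragments, so that levels of different genes can be compared per length. Fewer cells that transcribe a gene and less RNA per cell cannot be told apart in such libraries.

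Early embryos live on RNA stored in the egg until their own genome is switched on, a step called embryonic genome activation. In goats it falls around the 8-cell stage. In SCNT embryos a somatic nucleus has to take up this programme, and some of it is often delayed or missed. In the RefSeq table for goat (assembly ARS1.2, used for names and gene order alone because the files name no build), the cluster lies between CHORDC1 and NAALAD2 on the 1 side and FOLH1B, NOX4 and TYR on the other. In the human genome the stretch next to these same genes holds tripartite motif (TRIM) genes and UBTFL1. The table gives no product for any LOC number, so no family and no function is assigned to the 10 genes. It types 9 of them as protein-coding and LOC102190105 as a pseudogene.

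The 10 genes were chosen because they were low in SCNT libraries, so their differences between SCNT and IVF describe the choice and were not tested. All 10 passed the filter on low values (1 FPKM or more in at least 2 libraries). For 2 of them, LOC102178442 and LOC102178721, neither SCNT library reached 1 FPKM, so a pass through the IVF libraries alone made a difference certain. In both SCNT libraries each of the 10 lay below both IVF libraries. Over all 10303 tested genes, 17.1% had that arrangement, and 46.9% had the opposite one. With log2(FPKM + 1), the scale of every log2 value here, the median SCNT minus IVF difference was −4.10 over the 10 genes and 0.39 over all tested genes. The weakest of the 10 differences ranked 49th from the bottom among all tested genes.

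LOC108634189 was by far the most abundant of the 10. Its level was 2475 and 1503 FPKM in IVF replicates 1 and 2, and 19.4 and 140 FPKM in SCNT replicates 1 and 2. Among all entries of the table it ranked 13 and 18 in IVF, and 3087 and 522 in SCNT. The IVF mean was 1989 ± 687 and the SCNT mean 79.9 ± 85.5 FPKM (SD, n = 2), a ratio of 24.9 and a log2 difference of −5.17. The lower IVF value was 10.7 times the higher SCNT value.

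LOC102190105, the pseudogene by type, came next. It stood at 524 and 322 FPKM in IVF against 9.80 and 61.0 FPKM in SCNT (log2 difference −3.99). LOC102178164 stood at 285 and 218 FPKM in IVF and at 16.3 and 57.2 FPKM in SCNT (−2.98). It had the smallest difference of the 10 and the smallest ratio of means, 6.83. It was also the gene whose groups came closest, with a lower IVF value 3.80 times the higher SCNT value.

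A pair of genes of similar, moderate level followed. LOC102181365 was at 101 and 53.0 FPKM in IVF and at 1.23 and 6.21 FPKM in SCNT (log2 difference −4.21). LOC102182032 was at 76.7 and 45.8 FPKM in IVF and at 0.394 and 6.62 FPKM in SCNT (also −4.21). The IVF values of this pair overlapped, so their order is not set by these data. LOC102180826 was at 34.0 and 39.4 FPKM in IVF and at 0.292 and 4.88 FPKM in SCNT (−3.77), and was the single gene of the 10 that was higher in IVF replicate 2 than in replicate 1. LOC108634188 was at 20.1 and 14.3 FPKM in IVF and at 0.290 and 2.15 FPKM in SCNT (−3.16).

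The remaining genes, LOC108634190, LOC102178442 and LOC102178721, were close to absent from SCNT embryos. LOC108634190 had 47.9 and 32.2 FPKM in IVF against 0.113 and 1.16 FPKM in SCNT (log2 difference −4.70). LOC102178442 had 38.6 and 14.9 FPKM in IVF against 0.0564 and 0.421 FPKM in SCNT (−4.36). LOC102178721 had 19.1 and 7.92 FPKM in IVF against 0.115 and 0.200 FPKM in SCNT (−3.53). As ratios of the mean FPKM, these were the highest of the 10, at 63.0, 112 and 85.7. The pseudocount holds down their log2 differences, because their SCNT levels lie near or below it.

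**Figure D1:**
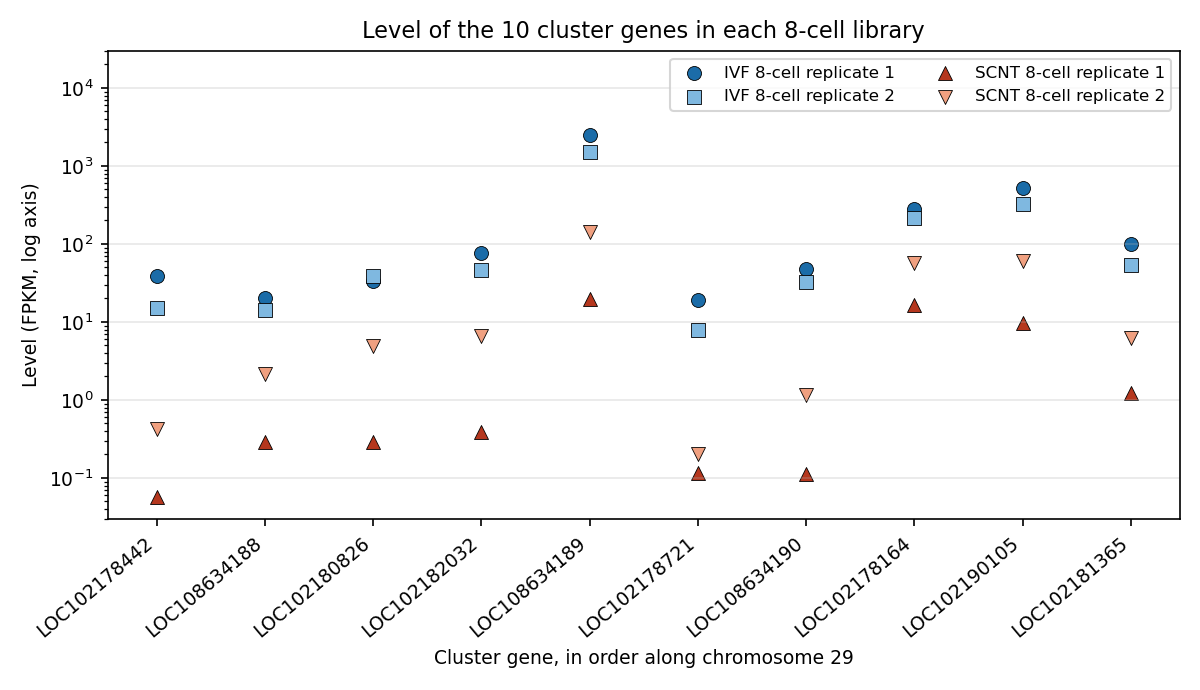
Level of each cluster gene (FPKM, log axis) in the 4 libraries of 8-cell embryos, in gene order along chromosome 29; each point is 1 library. For every gene both SCNT points lie below both IVF points, and SCNT replicate 2 lies above SCNT replicate 1.

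In IVF embryos the genes spanned a wide range of levels, from a mean of 13.5 ± 7.87 FPKM for LOC102178721 to that of LOC108634189. Ordered by IVF mean, the top 3 genes were separated from each other and from the fourth. In the other 6 of the 9 neighbouring pairs of that order, the IVF values of the pair overlapped. Neighbouring position did not go with equal level: LOC108634189 lies directly between LOC102182032 and LOC102178721.

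The depth behind the lowest values could be read from the table itself. In each library the low FPKM values of short genes, multiplied by the gene length, were often multiples of a single step. With the totals this gives, 27.5 and 30.3 M reads in IVF and 28.4 and 28.5 M in SCNT (M, 1000000), 74.4% of 1716 entries with a RefSeq span under 1600 bases came to whole reads in every library, within 0.01 read. For the 10 genes the smallest length that gives whole reads was between 1227 and 1568 bases. For LOC102178442, LOC108634188, LOC102178721 and LOC108634190 that length equals the whole RefSeq gene span, so these models are a single block without introns. In the other 6 the span is longer than the counted length. In 8 of the 10, the pseudogene LOC102190105 included, the length is a multiple of 3, which does not show that a model is coding. A larger multiple of the length would raise all read numbers alike and leave their ratios unchanged.

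At these lengths the IVF values rest on 295 to 92499 reads per gene and library. The 6 lowest SCNT replicate 1 values rest on fewer than 20 reads each. LOC102178442 had 1326 and 566 reads in IVF and 2 and 15 in SCNT. The exact 95% Poisson interval of its SCNT replicate 1 level ran from 0.00683 to 0.204 FPKM. LOC102178721 had 643 and 295 reads in IVF and 4 and 7 in SCNT, and LOC108634190 had 1635 and 1214 in IVF and 4 and 41 in SCNT. These intervals cover counting error only, since PCR copies cannot be told from separate molecules. For the 4 single-block genes reads came out whole at the RefSeq span, so no division in fractions between copies was seen. For the other 6 the length was chosen to give whole reads, so it cannot show this. Whether reads of near-identical copies were dropped or given to 1 copy was not tested, and the levels of single members are uncertain to that extent.

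The second SCNT library held more of every cluster gene than the first. The ratio of SCNT replicate 2 to replicate 1 ran from 1.74 for LOC102178721 to 16.8 for LOC102182032, with a median of 7.32. On the log2 scale the median gap was 1.72 over the 10 genes and 0.25 over all tested genes, of which 60.7% were higher in SCNT replicate 2. This gap was part of what the genes were chosen by and is a description of 2 libraries, without a test. The ratio of LOC102178721 rests on 4 and 7 reads, and its exact binomial interval, for counting error alone, ran from 0.443 to 8.12, so no gap was detectable at this depth. For LOC102178442, which rests on 2 reads in replicate 1, the ratio of 7.47 had an interval from 1.74 to 67.3. LOC102180826 (16.7, interval 9.56 to 31.9) and LOC102182032 (16.8, 9.99 to 30.5) had the highest ratios, on 13 and 15 reads in replicate 1. Their intervals overlapped those of LOC108634190 (10.2, 3.70 to 39.2) and LOC102178442, so the order of these genes is not set. Among the abundant genes the ratio was 7.23 for LOC108634189, 6.23 for LOC102190105 and 3.52 for LOC102178164. LOC102180826 and LOC102182032 are neighbours in the gene order.

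Even in SCNT replicate 2 no gene came near its IVF level. SCNT replicate 1 held between 0.211% (LOC102178442) and 6.48% (LOC102178164) of the IVF mean of a gene. SCNT replicate 2 held between 1.48% (LOC102178721) and 22.8% (LOC102178164). In SCNT replicate 2 the genes fell into separate ranges, a split made after the values were seen. LOC102178442, LOC102178721 and LOC108634190, the 3 shortest models and all single blocks, were at 1.57%, 1.48% and 2.89%. The other 7 were between 7.06% and 22.8%. LOC108634188, the fourth single-block gene, was among these at 12.5%.

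**Figure D2:**
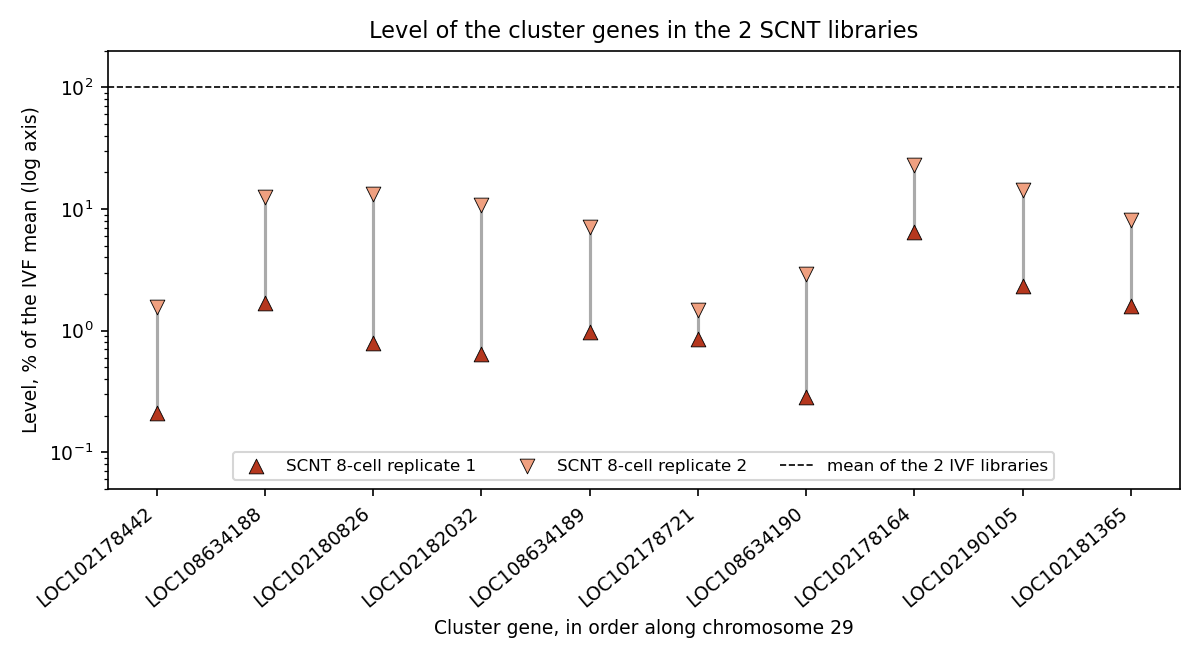
Level of each cluster gene in the 2 SCNT libraries as a percentage of the mean of the 2 IVF libraries (dashed line at 100%, log axis), in gene order. SCNT replicate 2 lies above replicate 1 for all 10 genes and reaches at most 22.8%.

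The 10 genes summed to 3621 and 2250 FPKM in IVF replicates 1 and 2 and to 48.0 and 280 FPKM in SCNT replicates 1 and 2. As a share of the summed FPKM of the table, this was 0.872% and 0.577% in IVF against 0.0126% and 0.0657% in SCNT. Both SCNT sums lay below both IVF sums. The sum in SCNT replicate 2 was 9.55% of the IVF mean and that in replicate 1 was 1.64%. Between the IVF libraries 9 of 10 genes were higher in replicate 1, where 44.1% of all tested genes were higher. The median ratio of the 10 was 1.64 times. The genes were chosen from these same libraries, so this too is a description without a test. The largest IVF gaps were those of LOC102178442 (2.59 times) and LOC102178721 (2.41 times).

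The make-up of the sum differed between the groups. LOC108634189 gave 68.4% and 66.8% of it in IVF but 40.5% and 50.1% in SCNT. LOC102178164 gave 7.86% and 9.67% in IVF and 33.9% and 20.4% in SCNT, and LOC102190105 14.5% and 14.3% against 20.4% and 21.8%. The other 7 genes together gave 9.30% and 9.23% in IVF and 5.19% and 7.72% in SCNT. In the IVF libraries these shares were within 2 percentage points of each other, while the total differed 1.61-fold.

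**Figure D3:**
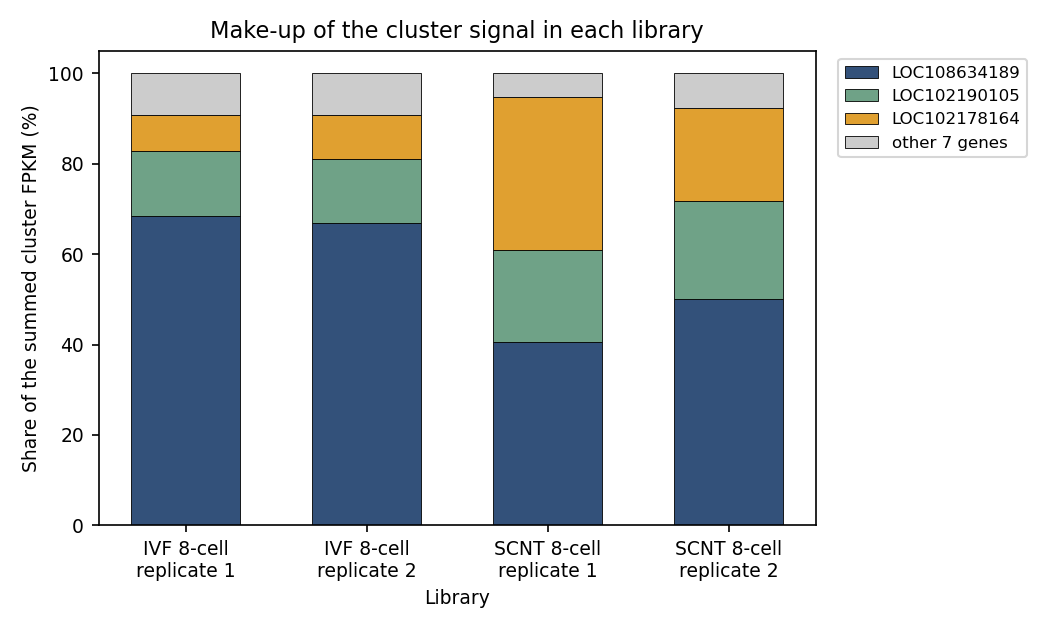
Share of the summed FPKM of the 10 cluster genes (%) given by LOC108634189, LOC102190105, LOC102178164 and the other 7 genes in each 8-cell library. LOC102178164 takes 33.9% and 20.4% of the smaller SCNT sums and under 10% of the IVF sums.

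Genes next to the cluster were then compared, since these were chosen by position. Another 3 genes lie between the outermost cluster genes. LOC102190382 stood at 154 and 60.7 FPKM in IVF and at 11.6 and 30.4 FPKM in SCNT, a log2 difference of −2.30 ± 0.60 (SE; limma adjusted p = 0.0619). LOC102177051 stood at 47.7 and 29.7 FPKM in IVF and at 7.18 and 22.7 FPKM in SCNT (−1.47 ± 0.57, adjusted p = 0.126). Both SCNT values lay below both IVF values in each, SCNT replicate 2 lay above replicate 1, and neither gene passed. They are the neighbours just outside the choice, against −2.98 for LOC102178164 just inside it. That they were not among the 10 may itself reflect these values, so their tests are not independent of it. In limma LOC102190382 passed once the libraries were centred on their medians (adjusted p = 0.0319), once they were rescaled to equal totals (0.0360) and without IVF replicate 2 (0.0252). The other of the 3, the pseudogene LOC102180286, was at 0.0376 FPKM or less in every library.

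Among the genes outside the cluster, differences were smaller and went both ways. LOC102179165, a pseudogene directly before LOC102178442, was at 0.107 and 0.533 FPKM in IVF and at 1.502 and 2.27 FPKM in SCNT. LOC102178882 was at 13.9 and 1.34 FPKM in IVF and at 12.2 and 16.3 FPKM in SCNT, with overlapping groups. LOC102178042, the next gene out, was abundant in both kinds of embryo, at 365 and 371 FPKM in IVF and at 370 and 490 FPKM in SCNT (log2 difference 0.21 ± 0.38, adjusted p = 0.739). On the other side, FOLH1B reached at most 0.464 FPKM. NOX4, which encodes an NADPH oxidase, was at 4.01 and 4.37 FPKM in IVF and at 2.67 and 1.10 FPKM in SCNT (−0.90, adjusted p = 0.212).

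Farther out, CHORDC1 was at 8.49 and 8.36 FPKM in IVF and at 6.70 and 2.12 FPKM in SCNT (−0.94, adjusted p = 0.262). The glutamate receptor gene GRM5 had a difference of −0.81 (0.302) and CTSC, which encodes the protease cathepsin C, 0.78 (0.264). For CHORDC1, NOX4, GRM5, CTSC and LOC108634251 the second SCNT library was the lower one, opposite to all 10 cluster genes. In the other tested genes outside the cluster, LOC102178042, LOC102178882, LOC102179165, LOC108634200 and LOC102182853, it was the higher one. Over all tested genes, 60.7% were higher in SCNT replicate 2. The lncRNA genes LOC108634200 (−1.71, adjusted p = 0.0577) and LOC108634251 (−1.49, 0.0603) were low in both SCNT libraries, at 0 and 0.158 FPKM and at 0.851 and 0.412 FPKM, against 4.10 and 1.42 FPKM and 3.44 and 3.62 FPKM in IVF. Another lncRNA gene, LOC102182853, was at 19.2 and 13.7 FPKM in IVF and at 17.5 and 17.7 FPKM in SCNT.

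**Figure D4:**
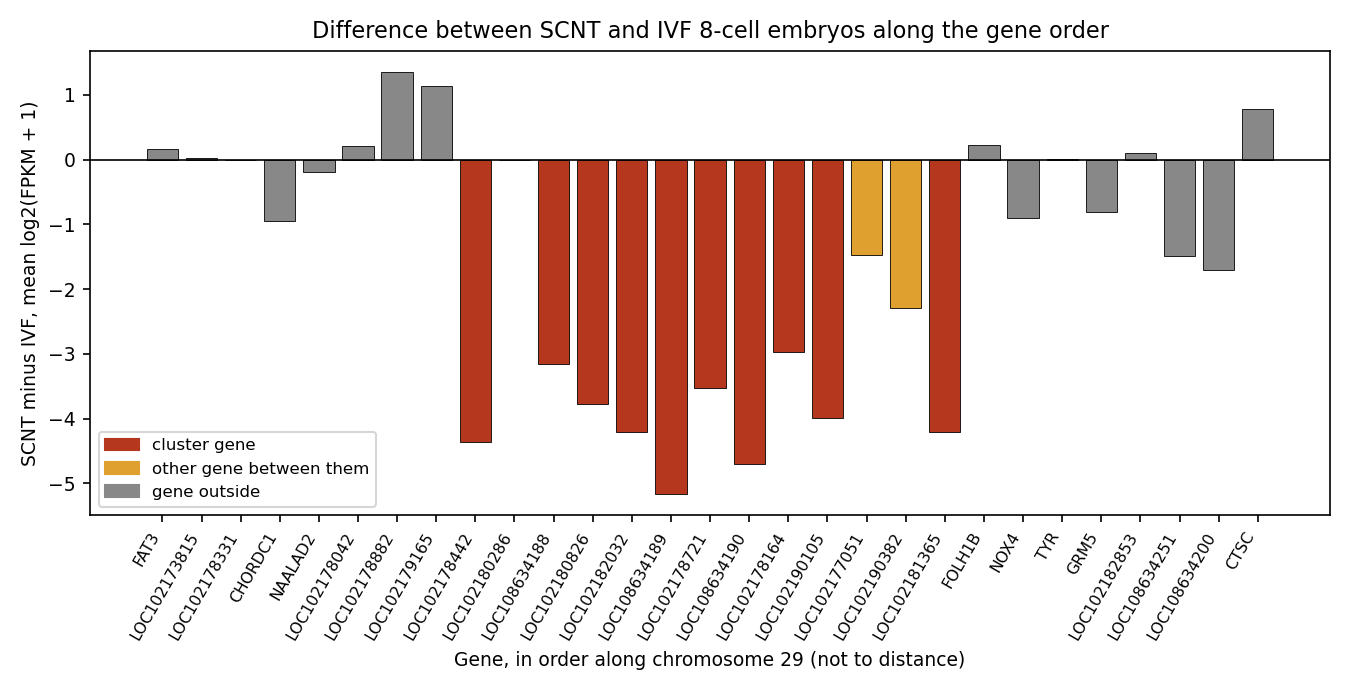
SCNT minus IVF difference in mean log2(FPKM + 1) for the genes of the mRNA table in and around the cluster, in gene order and not to distance; bars are differences of group means of 2 libraries each. The 10 cluster genes lie between −5.17 and −2.98, and the genes outside between −1.71 and 1.36.

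Of 12 tested neighbours within and around the cluster, 7 had both SCNT values below both IVF values, 5 of them among the 10 outside it, against 17.1% of all tested genes, and 2 had the opposite arrangement. The median difference of the 12 was −0.86, against 0.39 over all tested genes. In limma 0 of the 12 passed (adjusted p under 0.05), with 5 at an unadjusted p under 0.05, against 31.1% of all tested genes at that unadjusted level. Over all tested genes 3.86% passed, 0.844% as lower and 3.02% as higher in SCNT. Over the rest of chromosome 29, neighbours included, 8 of 232 tested genes passed as higher and 1 as lower, and the median difference was 0.78. The lower one, named after its values were seen, was LOC108634216, at 3.20 and 2.28 FPKM in IVF and at 0 and 0.374 FPKM in SCNT (limma adjusted p = 0.0483), and it is not a neighbour of the cluster. The calls over all genes were 311 higher and 87 lower as deposited, 158 and 238 with libraries centred on their medians, 121 and 150 with quantile normalization and 1031 and 177 with rescaling to equal totals. The median of all tested genes was −0.10, −0.01 and 0.47 under the 3 other scalings, against 0.39. The median of the 10 cluster genes lay at −4.59, −4.35 and −4.50.

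Genes of genome activation gave the wider setting. Of a list of 50 such genes, 20 had an entry under an unrepeated name. Of 18 tested, 2 passed as higher and 0 as lower in SCNT, against 3.02% and 0.844% of all tested genes. In 9 of the 18 both SCNT values exceeded both IVF values, against 46.9% of all tested genes. The opposite arrangement held for 1, against 17.1%. The median difference was 0.88, against 0.39 over all tested genes. SLC34A2, a phosphate transporter gene, stood at 1.014 and 1.17 FPKM in IVF and at 18.3 and 28.7 FPKM in SCNT (log2 difference 3.51 ± 0.46, limma adjusted p = 0.0223), and PABPN1L, which encodes an RNA-binding protein, at 4.52 and 20.7 against 61.9 and 153 FPKM (3.17 ± 0.70, 0.0485). In limma without the filter on low values neither passed (adjusted p = 0.242 for each). With a pseudocount of 0.1, PABPN1L did not pass in limma (adjusted p = 0.0521). SLC34A2 did not pass without SCNT replicate 2 (adjusted p = 0.0620). PABPN1L did not pass without IVF replicate 1 (0.163) or SCNT replicate 2 (0.145), nor with median centring (0.0536) or quantile normalization (0.0607).

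The homeobox genes of that list code for transcription factors of the early embryo. TPRX1 and TPRX2, also homeobox genes of the list, had no such entry, so nothing is said of them here. ARGFX had 497 and 105 FPKM in IVF against 51.4 and 88.3 FPKM in SCNT (−1.75, limma adjusted p = 0.128). Its groups did not overlap, but IVF replicate 2 lay close to the SCNT values. Without IVF replicate 2 its difference was −2.86 and passed (0.0279). DUXA had 297 and 46.1 FPKM in IVF against 78.8 and 74.6 FPKM in SCNT (−0.61, 0.609), and LEUTX 577 and 372 against 160 and 499 FPKM (−0.71, 0.418). In both of these, the groups overlapped, and the sign turned when 1 library was left out (0.72 for DUXA without IVF replicate 1, 0.11 for LEUTX without SCNT replicate 1). LEUTX in SCNT replicate 2 lay within its IVF range, where the cluster sum reached 9.55% of the IVF mean. The IVF libraries differed more in ARGFX and DUXA than in any cluster gene. OTX2 went the other way, at 31.4 and 9.63 FPKM in IVF against 62.5 and 65.4 FPKM in SCNT (1.81, limma adjusted p = 0.0790), with both SCNT values above both IVF values.

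**Figure D5:**
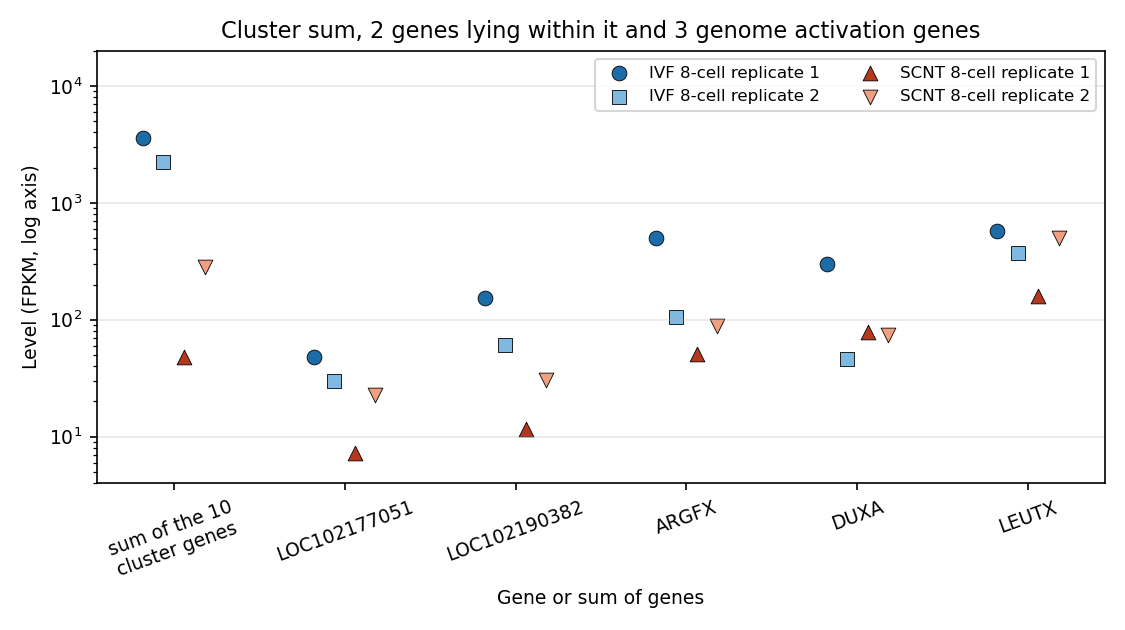
Level (FPKM, log axis) of the sum of the 10 cluster genes, of LOC102177051 and LOC102190382, which lie among them, and of the homeobox genes ARGFX, DUXA and LEUTX in each 8-cell library. The cluster sum falls from at least 2250 FPKM in IVF to at most 280 FPKM in SCNT, whereas DUXA and LEUTX overlap between the groups.

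The genes most like the cluster were ranked by the distance between profiles over the 4 libraries, each log2 profile being centred on its own mean. The 10 genes lay at distances of 0.25 to 1.35 from their own median profile, and the median tested gene at 4.63. The 10 genes set that profile and were chosen by this contrast, so their closeness was fixed in advance. Outside the cluster, 26 genes lay no farther from the profile than the farthest of the 10. Among genes with a symbol, the nearest were WNT16 (0.77), a Wnt ligand gene, DNAJC12 (1.16), a co-chaperone gene, HMGN5 (1.38), which encodes a nucleosome-binding protein, OLR1 (1.53), a receptor gene for oxidised lipoprotein, and C1D (1.60), a gene of RNA processing. WNT16 was at 51.8 and 52.0 FPKM in IVF and at 1.67 and 5.10 FPKM in SCNT. C1D, at 86.0 and 31.1 against 4.65 and 4.43 FPKM, showed no rise in SCNT replicate 2. None of these lies on chromosome 29. Of the 50 nearest genes of any name outside the cluster, 42 have LOC numbers, against 13.6% of all tested genes, and 1 lies on chromosome 29, LOC102190382. A likeness over 4 libraries of 2 groups describes these libraries and carries no test.

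Markers of other cells were set beside these values. Of 11 tested fibroblast markers TIMP1 and TAGLN passed as higher in SCNT, a call made for 3.02% of all tested genes. In 6 of the 11 each SCNT value exceeded each IVF value, an arrangement of 46.9% of all tested genes, and 2 had the opposite one; the median difference was 0.81. The whole list of 20 summed to 143 and 133 FPKM in IVF and to 110 and 125 FPKM in SCNT. DCN, which encodes the proteoglycan decorin, made up most of the IVF sums, at 94.3 and 85.5 FPKM against 33.9 and 39.5 FPKM in SCNT. Without it the list summed to 48.6 and 47.2 FPKM in IVF and to 76.6 and 85.5 FPKM in SCNT. COL5A1, COL6A1 and THY1 were below 0.1 FPKM in all 4 libraries. None of 6 tested cumulus and granulosa markers passed, a call made for 3.86% of all tested genes. In 2 of the 6 both SCNT values lay below both IVF values, against 17.1% of all tested genes. The opposite arrangement held for 1, against 46.9%. Of their list of 17, the 14 with an entry summed to 99.4 and 106 FPKM in IVF and to 80.4 and 117 FPKM in SCNT. AMH, FSHR and INHA were listed at 0. Of 9 tested trophoblast genes, HAND1 and KRT8 passed as higher, against 3.02% of all tested genes. In 3 of the 9 both SCNT values exceeded both IVF values, against 46.9% of all tested genes. The opposite arrangement held for 0, against 17.1%. The median difference was 0.53, against 0.39 over all tested genes. Apart from HAND1, these marker calls depended on single libraries, and those of TAGLN and KRT8 also on scaling. In limma TAGLN did not pass without IVF replicate 1 (adjusted p = 0.144), IVF replicate 2 (0.175) or SCNT replicate 2 (0.0833), nor with centring (0.0586) or quantile normalization (0.0747). KRT8 did not pass without IVF replicate 2 (0.136) or SCNT replicate 2 (0.130), nor with quantile normalization (0.0662) or a pseudocount of 0.1 (0.0637). TIMP1 did not pass without IVF replicate 1 (0.0506) or SCNT replicate 2 (0.0620). Without the filter on low values none of the 4 passed (0.242 for each). The part of such cells in the cluster's values was not tested.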

How the data were processed

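Messenger RNA values of 4 libraries of 8-cell embryos, 2 IVF and 2 SCNT, were used. The authors deposited them as FPKM. Per the submitters' processing notes, HISAT2 2.2.1, HTSeq and fastp were used, with no role or order stated. For genome build, annotation and scaling total, the sources used here give nothing. Of 22107 entries, 22065 have a name in the RefSeq table; the 281 with repeated names and 26 with date-like names were not named. Groups come from the sample titles.

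The whole table was fitted with limma 3.58.1 in R 4.3.3 (lmFit, eBayes with a trend) on log2(FPKM + 1), keeping genes that reached 1 FPKM in 2 or more libraries. Tests were two-sided, adjusted by Benjamini-Hochberg over all 10303 genes, with a threshold of 0.05. The fit was checked on simulated data with large planted differences and a smaller spread than that of the libraries. This check does not show how the calls hold at the spread of the libraries. Library totals were taken as the most frequent value that short RefSeq spans gave for 1 to 20 reads. The members and lists were chosen with earlier results of these data known. Named were the 10 genes, their neighbours (those between them and 10 on each side; the 12 of highest mean level), ARGFX, DUXA, LEUTX and the passing genes of the activation list, and the 5 nearest symbols by profile. The genes OTX2, FOLH1B, LOC102180286 and LOC108634216, genes of the runs and single markers were named to complete a statement. Alternatives were another pseudocount (0.1), no filter, 3 scalings, a replicate block and leaving out each library. A planned search for relatives by product name and a comparison of protein and promoter sequences could not be made with the tables used here.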

Additional observations from a re-analysis of the deposited data

How the results depend on the processing

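Over 10 alternatives the differences of the 10 cluster genes lay between −6.56 and −2.10 on the log2 scale; the choice of genes fixes their sign, and 20 of the 100 values equal the reported ones by construction (no filter, replicate block). Their median ran from −4.96 to −3.17 without 1 library, and the median gap between the SCNT libraries kept its sign, from 1.46 to 2.54. The number of genes called moved far more: 398 as reported, 0 without the filter (20289 genes tested, 3661 at an unadjusted p under 0.05), 1208 after rescaling (12516 tested) and 46 to 3834 without 1 library (46 without SCNT replicate 2, 3834 without SCNT replicate 1, 173 without IVF replicate 1). Neighbours passing, 0 as reported, were 1 with a pseudocount of 0.1, 3 after centring, 2 after quantile normalization, 3 after rescaling and 0 to 4 without 1 library. Genome activation genes passing, 2 as reported, were 1 with the pseudocount of 0.1, 0 without the filter, 1 after centring, 1 after quantile normalization, 4 after rescaling and 0 to 6 without 1 library. With the replicate block, 1924 genes, 4 neighbours and 6 activation genes passed; nothing says that the numbers pair the libraries, and the correlation of the replicate differences of IVF and SCNT across genes was 0.12. Signs turned for LOC102178042 (−0.28) and LOC102182853 (−0.39) after centring, for LOC102182853 after quantile normalization (−0.26) and without IVF replicate 2. Without 1 library the value of LOC102182853 ran from −0.12 to 0.33, that of DUXA from −1.94 to 0.72 and that of LEUTX from −1.53 to 0.11. The cause was not tested. Among neighbours, LOC108634200 and LOC108634251 passed under each of the 3 scalings. Without SCNT replicate 1, CHORDC1, GRM5, LOC102179165 and LOC108634251 passed, and without IVF replicate 2, LOC102190382 and LOC108634200. Where 1 library is left out, the lone sample is assumed to vary like the other group. With 2 libraries a group, the lowest SCNT values rest on few reads.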

Other observations

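Low SCNT levels in runs of neighbouring genes were also counted elsewhere, along the gene order of 10032 tested genes with a place on a chromosome. A fall of 2 or more on the log2 scale was seen in 99 of them. Most of these had no adjacent tested gene with such a fall. The others formed 11 runs of 2 or more adjacent tested genes, of which 4 held 3 or more. The longest held 9 genes, all of the chromosome 29 cluster, whose choice as neighbours low in SCNT fixed this run in advance. The next held 5 LOC-numbered genes on chromosome 16, from LOC102172469 to LOC102177081, with a median difference of −3.40. A run of 4 lay on chromosome 18, from LOC102191368 to LOC102191077 (median −3.31), and a run of 3 on chromosome 15, from LOC102188609 to LOC102187510 (−2.96). All genes of these 3 runs carry LOC numbers without a product name. Of the chromosome 16 run, LOC102176812 was at 575 and 379 FPKM in IVF and at 21.4 and 130 FPKM in SCNT, and LOC102177081 at 94.2 and 41.1 FPKM and at 1.20 and 15.2 FPKM. In both, SCNT replicate 2 lay above replicate 1, as in the chromosome 29 genes and in 60.7% of all tested genes. Both were among the 10 genes outside the cluster nearest to its profile, so this order was part of that likeness. These genes were named after their values were seen, and no test was made.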
